A study of Rattus norvegicus with 105 samples.

Results

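The 7 genes of the AP-1 Fos and Jun family (Fos, Fosb, Fosl1, Fosl2, Jun, Junb and Jund) were followed through rat frontal cortex on the Affymetrix arrays of 11 groups in 3 experiments. They were found by gene symbol in the platform's probe annotation, which gave 13 probe sets among 31042 and 7 genes among 14217 distinct symbols. The lesion experiment compared 12 arrays from rats with a ventral hippocampal lesion with 10 arrays from sham rats. The TTX experiment compared 11 arrays from rats whose ventral hippocampus had been disrupted with tetrodotoxin, a sodium channel blocker that silences neurons, with 9 sham arrays. The neuroleptic experiment, all after chronic treatment, set clozapine (low dose 10 arrays, medium dose 9, high dose 8) and haloperidol (9 arrays for every dose) against 9 vehicle arrays. Clozapine is an atypical and haloperidol a typical antipsychotic. The labels give doses only as words and give no strain, age, sex, delay after surgery or time between the last dose and dissection for any group. Each array's title has the word Rat and its own code, but no label states that every code is a separate animal. The tests below therefore judge differences against the scatter among arrays, some of which may be technical.

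AP-1 is a transcription factor made of 2 proteins joined by a leucine zipper. Jun proteins can pair with each other or with a Fos protein, Fos proteins need a Jun partner, and the pair binds the DNA site TGANTCA. In cortical neurons Fos, Fosb and Junb are immediate early genes, transcribed within minutes of synaptic activity through SRF and CREB at their promoters, and their transcripts are short-lived. Jund is made more steadily, and a truncated FosB protein is stable enough to build up under repeated stimulation.

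Promoter sequence is shown for Junb, whose values varied across arrays with those of Fos (r of 0.60), and for Jund, whose correlation with Fos was 0.04, to set an inducible beside a steadily made member. RefSeq promoters on the GRCr8 build were matched by symbol for 5 of the 7 genes, which were Fosb, Fosl1, Fosl2, Junb and Jund. The 250 bases before the annotated start are given on the gene's own strand, at chr19:40080876-40081125 (plus strand) for Junb and at chr16:18769772-18770021 (minus strand) for Jund, and capitals mark a TATA box (TATAAA) in Junb and a CRE, the site of CREB (TGACGTCA), in Jund.
Junb: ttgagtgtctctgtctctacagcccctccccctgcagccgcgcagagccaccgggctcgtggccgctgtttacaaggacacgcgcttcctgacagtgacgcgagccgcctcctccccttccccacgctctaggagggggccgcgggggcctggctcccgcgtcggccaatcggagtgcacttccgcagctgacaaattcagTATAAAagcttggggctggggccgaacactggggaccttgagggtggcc
Jund: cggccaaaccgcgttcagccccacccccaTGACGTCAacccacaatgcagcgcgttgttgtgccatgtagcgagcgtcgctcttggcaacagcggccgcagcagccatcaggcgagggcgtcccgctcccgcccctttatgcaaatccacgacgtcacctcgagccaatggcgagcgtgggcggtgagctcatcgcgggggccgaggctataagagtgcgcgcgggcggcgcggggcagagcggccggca
The Junb match began at position -49 from the start and the Jund match at position -221. Of 33469 promoters of the same length, read on both strands, 12.9% held TATAAA and 1.59% held TGACGTCA. The CRE core TGACG, present in 18.2% of promoters and overlapping any full CRE, was found in Junb at position -155, in Jund at position -98 apart from the full CRE, and in Fosl1 at positions -148 and -84. TATAAA also matched in Fosb at position -180 on the opposite strand. The AP-1 site TGANTCA, held by 6.34% of promoters, and the CArG box, the site of SRF, held by 1.5%, were searched for in the same way and had no match in these 5 windows.

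The deposited intensities were brought to log2 after quantile normalisation within each experiment and a floor of 5.00 log2 units. In each experiment the 60% of probe sets with the highest mean, 18625, were tested with limma, and a probe set was called at a Benjamini-Hochberg adjusted p under 0.05 over all of them. Of the 13 family probe sets 6 were tested in all 3 experiments, which were 1 for Fos, 3 for Jun, 1 for Junb and 1 for Jund. The other 7, including every probe set of Fosb, Fosl1 and Fosl2, fell below the filter. Among them were a second Fos, a second Fosl2 and the other 2 Jund probe sets. Before quantile normalisation, each of these had between 14.3% and 36.2% of its deposited intensities under the floor. Probe sets differ in how well they bind, so levels are compared between arrays and never between probe sets. Of 8 cortical excitatory markers 7 were on the array, with means from 10.61 (Rorb) to 14.77 log2 units (the glutamate transporter gene Slc17a7). Striatal markers were on it too, with means from 8.59 (Adora2a) to 12.80 (Pde10a). As levels are not compared between probe sets, these values do not check the tissue label. Of 8 marker lists for neurons, glia, vessels, meninges and blood, 0 genes were called in any comparison, beside 0% to 1.2% of all probe sets (limma). At an unadjusted p under 0.05 there were 0 to 5 genes, beside 2.29% to 15.2% of all probe sets. The lowest mean of any marker on the array was 8.54 log2 units (Ptprc). Sample numbers in the titles fall into consecutive blocks, 2 in each surgical experiment and 3 in the neuroleptic one, and differences within blocks are given beside the main results.

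Fos was the only family member called in any comparison, at medium clozapine against vehicle, though its mean was above vehicle at every dose. Its transcript encodes the founding member of the Fos proteins and is widely used as a mark of recent neuronal activity. It lay between 11.11 and 12.63 log2 units on the 9 medium clozapine arrays, with a median of 12.12, against 8.46 to 11.93 with a median of 10.07 on the 9 vehicle arrays. Of the medium clozapine arrays 6 stood above the highest vehicle array and 9 of 9 above the vehicle mean, while the ranges overlapped through vehicle replicate 2 at 11.93. The means were 11.97 ± 0.49 at medium clozapine and 9.95 ± 1.15 in vehicle (SD, n = 9 each), a log2 difference of 2.02 ± 0.39 (SE), or 4.05-fold (limma, adjusted p = 0.0113). This was 1 of 6 family probe sets called, beside 0.0215% of all probe sets (4 of 18625). The other 3 calls, named after their values were seen, were Arc, an activity-induced gene of synaptic plasticity, at 1.46 ± 0.27 and 2 probe sets of Homer1, a postsynaptic scaffold gene with an activity-induced short form, at 1.16 ± 0.21 and 0.83 ± 0.15. In tissue RNA a change in how many cells hold a transcript and a change in its amount per cell cannot be told apart.

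Fos at medium clozapine was above vehicle in each block of sample numbers. Medium clozapine minus vehicle was 1.34 in the first block (2 arrays against 2), 2.88 in the second (2 against 2) and 1.94 in the third (5 against 5). The vehicle arrays were the most spread of the 7 neuroleptic groups, and the call rested on their low end. Without vehicle replicate 1, at 8.72, the difference was 1.87 (limma, adjusted p = 0.0530), and without vehicle replicate 5, at 8.46, it was 1.83 (adjusted p = 0.0598). The second Fos probe set lay near the floor, at 5.68 ± 0.80 at medium clozapine and 6.14 ± 0.60 in vehicle (SD, n = 9 each), and averaging both probe sets left 0.78 (adjusted p = 0.983).

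Marker levels overlapped between these groups, and 0 of 43 tested marker genes had an unadjusted p under 0.05. Cortical excitatory markers averaged between 12.22 and 12.75 log2 units over the medium clozapine arrays and between 12.27 and 12.66 over the vehicle arrays. Striatal markers, for tissue that could be included at the edge of a dissection, lay between 10.59 and 11.21 at medium clozapine and between 10.61 and 10.83 in vehicle, with 6 of 7 tested genes above vehicle and a median difference of 0.11. Blood cell markers lay between 10.19 and 11.15 at medium clozapine and between 10.09 and 10.97 in vehicle, and the 2 tested had a median difference of 0.34. The part of either in the Fos value was not tested. The log2 ratio of the 3′ to the 5′ actin control, a sign of RNA integrity, was 0.94 ± 0.10 at medium clozapine and 0.94 ± 0.11 in vehicle (SD, n = 9 each).

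**Figure D1:**
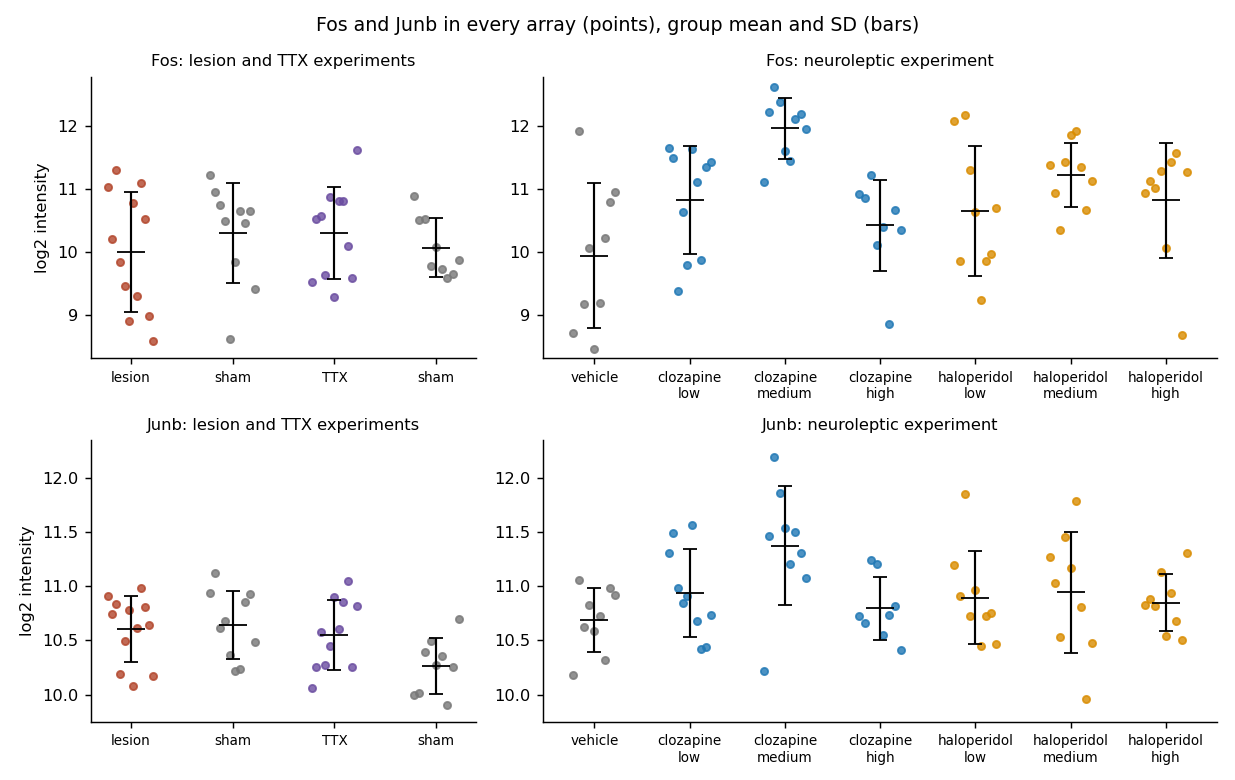
Log2 intensity of Fos (top) and Junb (bottom) on every array (points) with the group mean and SD (bars), in the lesion and TTX experiments (left) and the neuroleptic experiment (right). Medium clozapine has the highest mean of both genes, 11.97 for Fos and 11.37 for Junb, and the vehicle arrays of Fos spread from 8.46 to 11.93.

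At the other doses Fos also stood above vehicle in the mean and was not called. All doses share the same vehicle arrays, so their signs are not independent. Low clozapine arrays ranged from 9.38 to 11.66 with a median of 11.23, and 7 of 10 lay above the vehicle mean of 9.95. High clozapine arrays ranged from 8.86 to 11.22 with a median of 10.53, and 7 of 8 lay above it. The differences from vehicle were 0.89 ± 0.38 at low and 0.48 ± 0.40 at high clozapine (SE).

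Haloperidol arrays for Fos ranged from 9.23 to 12.19 at low dose, from 10.35 to 11.92 at medium dose and from 8.68 to 11.58 at high dose. Their medians were 10.63, 11.36 and 11.13, and 6 of 9, 9 of 9 and 8 of 9 arrays lay above the vehicle mean. The differences from vehicle were 0.70 ± 0.39 at low, 1.28 ± 0.39 at medium and 0.88 ± 0.39 at high haloperidol (SE). Limma's adjusted p for these 5 dose groups lay between 0.579 and 1.0, and unadjusted p was lowest at medium haloperidol (0.00160). The actin ratio was also higher at high haloperidol, 1.12 ± 0.14 against 0.94 ± 0.11 in vehicle (SD, n = 9 each). Over the neuroleptic arrays with block means removed, its correlation with Fos was 0.21. The same ratio for the GAPDH control had a correlation with Fos of 0.011. The part of the actin ratio in the haloperidol values was not tested.

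In both drugs the medium dose had the highest Fos mean. Ordered by mean, the groups ran vehicle, high clozapine, low haloperidol, high haloperidol, low clozapine, medium haloperidol and medium clozapine. Of the steps between neighbours in that order, the last, 0.74 log2 units, was larger than the SDs of the groups beside it, and the others were smaller. Medium clozapine minus low clozapine was 1.13 ± 0.38 and medium minus high clozapine 1.54 ± 0.40 (SE), comparisons added after the values had been seen. Both had an adjusted p of 1.0 in limma, with unadjusted p of 0.00406 and 0.000283. Blood cell markers differed between the same doses, with medians over the 2 tested genes of 0.67 for medium minus low and -0.53 for medium minus high clozapine, and 2 of 2 and 1 of 2 at an unadjusted p under 0.05. Their part in the Fos values was not tested. With both Fos probe sets averaged, medium minus low was 0.31 and medium minus high 0.75. High minus low was -0.41 ± 0.39 for clozapine and 0.18 ± 0.39 for haloperidol.

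Averaged over doses, Fos exceeded vehicle by 1.13 ± 0.32 under clozapine and by 0.95 ± 0.32 under haloperidol (SE), without being called (limma, adjusted p = 0.831 and 0.567). Under each drug 23 of 27 arrays lay above the vehicle mean. Within the 3 blocks the clozapine difference was 1.05, 1.56 and 1.04 and the haloperidol difference 0.77, 1.39 and 0.69. Both drugs share the 9 vehicle arrays, so these values are not independent of each other. With both Fos probe sets averaged, the differences from vehicle were smaller, at 0.43 for the clozapine mean and 0.58 for the haloperidol mean. By dose they were then 0.47 at low and 0.030 at high clozapine, and 0.33, 0.98 and 0.43 at low, medium and high haloperidol. Set directly against each other, by the brighter Fos probe set, clozapine minus haloperidol was 0.18 ± 0.22 (adjusted p = 0.728).

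After surgery the Fos groups lay within each other's spread. Lesion arrays ranged from 8.60 to 11.31 with a median of 10.02 and sham arrays from 8.62 to 11.22 with a median of 10.57. Lesion minus sham was -0.30 ± 0.35 (SE), with 7 of 12 lesion arrays below the sham mean and differences of -0.28 and -0.32 in the 2 blocks. TTX arrays ranged from 9.30 to 11.63 with a median of 10.52, and their sham arrays from 9.58 to 10.90 with a median of 9.87. TTX minus sham was 0.23 ± 0.26 (SE), with 7 of 11 TTX arrays above the sham mean, but the blocks gave -0.13 and 0.66. The lesion effect minus the TTX effect was -0.53 ± 0.46 (SE, limma, adjusted p = 0.881).

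**Figure D2:**
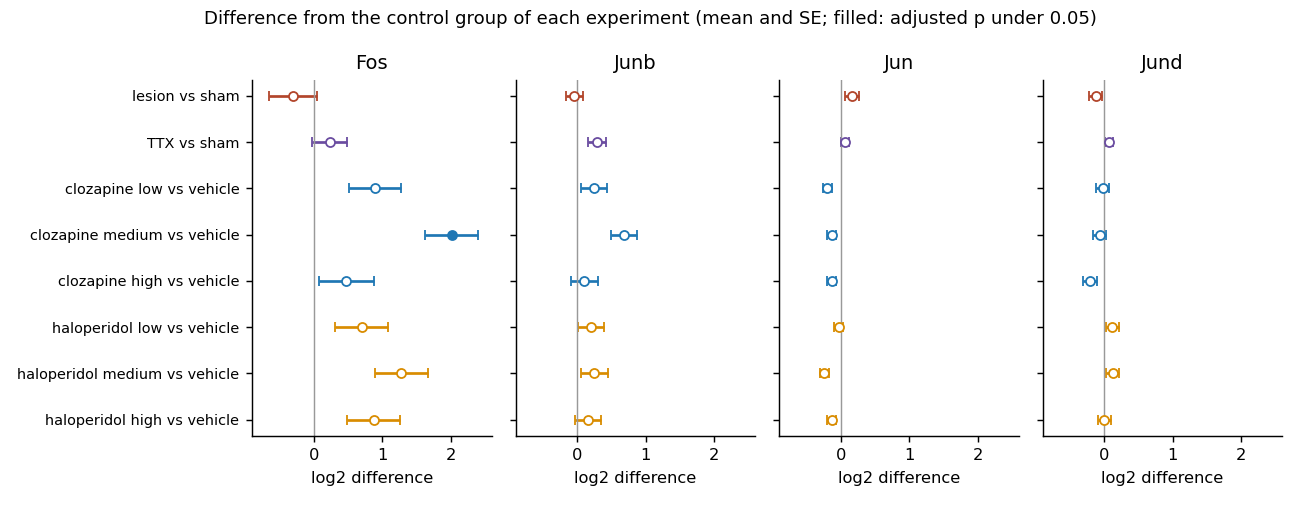
Log2 difference of Fos, Junb, Jun and Jund from the control group of the same experiment (point, mean; bar, SE), in rows for lesion, TTX and each drug dose; filled points have an adjusted p under 0.05. The only filled point is Fos at medium clozapine, at 2.02.

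Fosb, the gene whose stable truncated protein builds up under repeated stimulation, lay above vehicle in the mean at all 6 drug doses. These 6 comparisons share the same vehicle arrays, so they are not independent of each other. The Fosb level was 8.92 ± 0.34 at low, 8.86 ± 0.34 at medium and 8.73 ± 0.17 at high clozapine, against 8.47 ± 0.37 in vehicle (SD). Under clozapine 25 of 27 arrays lay above the vehicle mean. Under haloperidol the level was 8.76 ± 0.55 at low, 9.04 ± 0.39 at medium and 8.56 ± 0.71 at high dose, with 21 of 27 arrays above the vehicle mean. Ranges overlapped in every comparison, as vehicle ran from 7.80 to 9.02 and medium haloperidol from 8.25 to 9.64. The probe set was below the filter, and in the fit without a filter the largest difference from vehicle was 0.58 ± 0.21 at medium haloperidol (SE, limma, adjusted p = 1.0). Averaged over doses it was 0.37 ± 0.17 for clozapine and 0.32 ± 0.17 for haloperidol. Within the 3 blocks the clozapine value was 0.50, 0.27 and 0.30, while the haloperidol value had opposite signs, at 0.73, 0.26 and -0.08. After lesion Fosb was at 8.87 ± 0.35 against 8.76 ± 0.34 in sham, and after TTX at 8.86 ± 0.33 against 8.77 ± 0.50 in sham (SD).

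Fosl1 and Fosl2 encode Fra-1 and Fra-2, Fos-related proteins without the strong activation domain of Fos. Fosl1 was spread from the floor of 5.00 up to 8.64 log2 units. Before quantile normalisation, 8.57% of its deposited intensities lay under the floor. It stood below the control mean in every comparison with a control, by 0.07 at low haloperidol and after TTX, and by up to 0.82 ± 0.46 (SE) at high clozapine, where arrays ran from 5.00 to 8.39 against 6.63 to 8.30 in vehicle. The drug doses share the same vehicle arrays, so their signs are not independent. In the fit without a filter none of these differences was called, and the adjusted p at high clozapine was 0.994. At high clozapine the 3 blocks gave -0.66, -1.62 and -0.49. Blocks had opposite signs for the haloperidol mean, at 0.46, -1.28 and 0.21, for medium clozapine, at 0.76, 0.30 and -1.20, and for TTX, at 0.27 and -0.32.

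Fosl2, by its brighter probe set, was at 7.87 ± 0.43 after lesion against 8.23 ± 0.49 in sham (SD), and 8 of 12 lesion arrays lay below the sham mean. In the fit without a filter the difference was -0.36 ± 0.19 (SE, limma, adjusted p = 0.783), and the 2 blocks gave -0.29 and -0.44. TTX arrays averaged 8.38 ± 0.38 and their sham arrays 8.39 ± 0.41, with opposite signs in the blocks, at 0.29 and -0.29. At low, medium and high clozapine Fosl2 averaged 8.22, 8.52 and 8.55, and at low, medium and high haloperidol 8.26, 8.23 and 8.41, against 8.15 ± 0.50 in vehicle. Single arrays fell far from their group, such as low clozapine replicate 5 at 6.24. The second Fosl2 probe set lay near the floor throughout, with group means between 5.47 and 6.13.

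**Figure D3:**
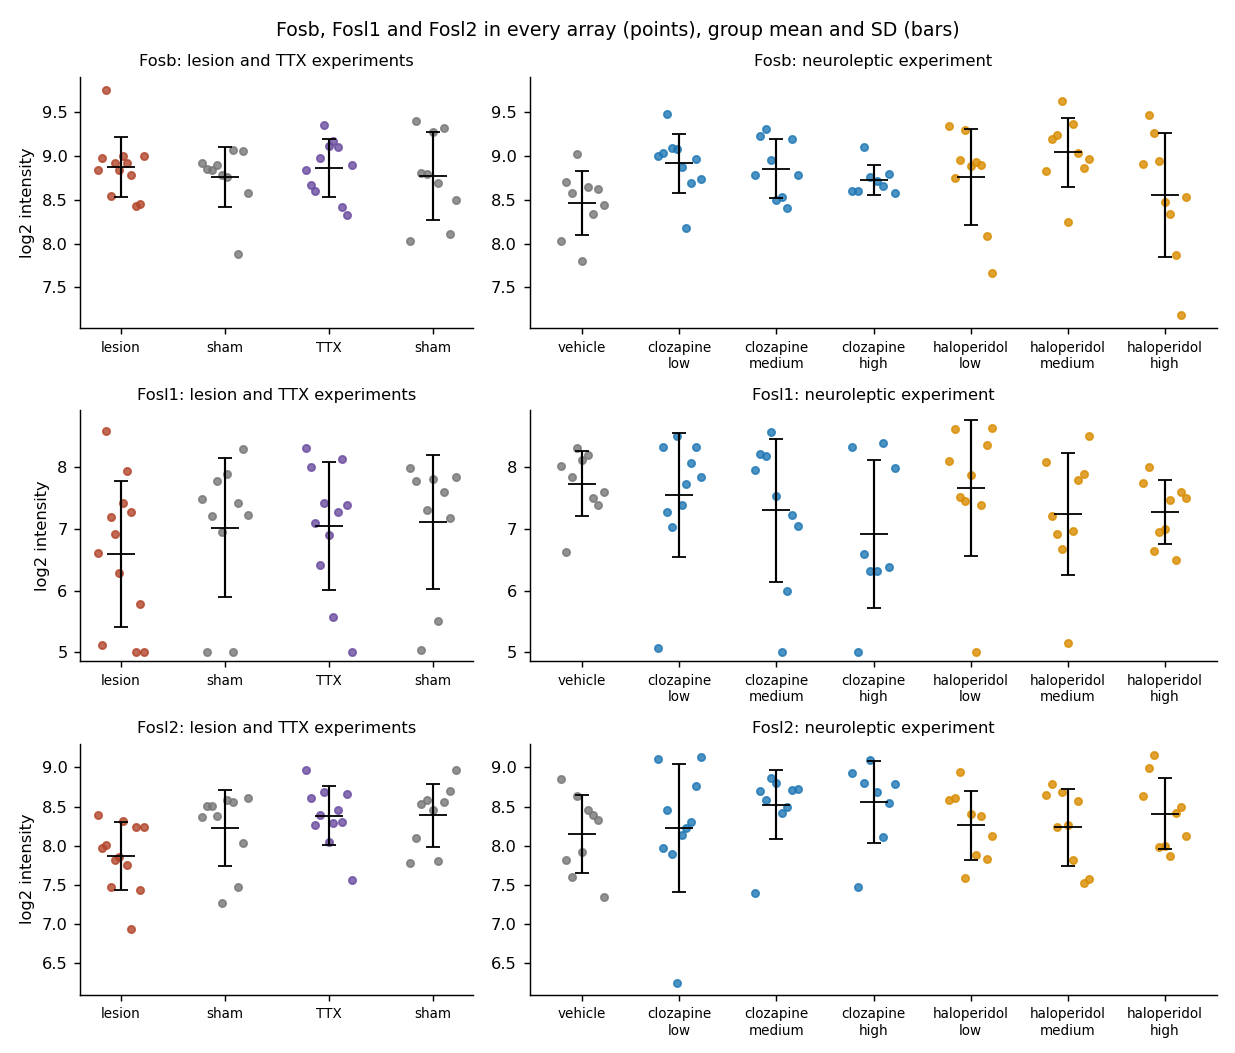
Log2 intensity of Fosb, Fosl1 and Fosl2 (brighter probe set) on every array (points) with the group mean and SD (bars). All 3 lay below the filter, Fosl1 reaches the floor of 5.00, and the Fosb vehicle mean of 8.47 is the lowest of its 7 neuroleptic groups.

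Junb, a Jun protein that pairs with Fos and is induced with it, had its highest mean at medium clozapine but was not called in any comparison. Medium clozapine arrays ranged from 10.21 to 12.19 with a median of 11.46, and vehicle arrays from 10.18 to 11.05 with a median of 10.73. The upper part of the medium clozapine group stood above every vehicle array, while its replicate 1, at 10.21, lay near the lowest of them. The difference was 0.68 ± 0.19 (SE, limma, adjusted p = 0.534), with 8 of 9 arrays above the vehicle mean and 0.22, 1.30 and 0.62 within the 3 blocks. At low and high clozapine it was 0.25 ± 0.19 and 0.10 ± 0.20, and at low, medium and high haloperidol 0.20, 0.25 and 0.16, each ± 0.19. Averaged over doses it was 0.34 ± 0.16 for clozapine and 0.20 ± 0.16 for haloperidol. The haloperidol value had opposite signs within blocks, at 0.42, 0.27 and -0.17.

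After TTX, Junb arrays ranged from 10.06 to 11.05 with a median of 10.57, and the sham arrays from 9.90 to 10.69 with a median of 10.27. TTX minus sham was 0.29 ± 0.13 (SE), with 8 of 11 TTX arrays above the sham mean, and the blocks gave 0.09 and 0.45. Its unadjusted p was 0.0310 and its adjusted p 0.999 (limma). Lesion arrays averaged 10.60 ± 0.31 and sham arrays 10.64 ± 0.31 (SD), a difference of -0.04 ± 0.13 (SE). The lesion effect minus the TTX effect was -0.33 ± 0.18 (adjusted p = 0.794).

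Jun, which encodes c-Jun, the target of the JNK kinases and a partner for itself and for Fos, was measured by 3 tested probe sets that did not always run together. By its brightest probe set it stood below vehicle at all 6 drug doses, by little. The 6 doses share the same vehicle arrays, so their signs are not independent. Low clozapine arrays ranged from 12.07 to 12.40 with a median of 12.26, medium haloperidol arrays from 11.86 to 12.44 with a median of 12.18, and vehicle arrays from 12.22 to 12.63 with a median of 12.44. All 10 low clozapine arrays and 8 of 9 medium haloperidol arrays lay below the vehicle mean of 12.44, and both ranges overlapped that of vehicle. The differences were -0.20 ± 0.063 at low clozapine and -0.24 ± 0.065 at medium haloperidol (SE), with limma's adjusted p of 1.0 and 0.617.

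Averaged over doses this probe set of Jun was at -0.15 ± 0.053 under clozapine and -0.13 ± 0.053 under haloperidol relative to vehicle (SE). Below the vehicle mean stood 25 of 27 clozapine and 21 of 27 haloperidol arrays, and each block had the same sign for both drugs. The second probe set, without a call either, was at -0.01 ± 0.082 and -0.08 ± 0.082 for the drugs, and the third at -0.12 ± 0.077 for both. At medium clozapine the 3 probe sets differed in sign, at -0.13 ± 0.065, 0.14 ± 0.10 and -0.19 ± 0.094. No direction is therefore given for Jun as a gene.

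After lesion the brightest Jun probe set ranged from 11.97 to 12.89 on lesion arrays and from 12.13 to 12.59 on sham arrays. The lesion arrays were the more spread, with SDs of 0.31 after lesion and 0.13 in sham. Lesion minus sham was 0.17 ± 0.10 (SE, limma, adjusted p = 0.723), and it came from the first block, at 0.41, while the second gave -0.07. After TTX the 3 probe sets were at 0.06 ± 0.060, -0.06 ± 0.11 and 0.04 ± 0.089 relative to sham.

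Jund, the member that is made most steadily and that can restrain growth, was measured by its brightest probe set, the 1 tested. Its mean was lower under clozapine than under haloperidol, short of a call. The 27 clozapine arrays ranged from 13.76 to 14.74 with a median of 14.32 and the 27 haloperidol arrays from 14.12 to 14.92 with a median of 14.48. The groups overlapped over most of their range, and 22 of 27 clozapine arrays lay below the haloperidol mean. Clozapine minus haloperidol was -0.18 ± 0.055 (SE), not called at an adjusted p of 0.0812 (limma), in a comparison where 1.2% of all probe sets were called (224 of 18625). With the block of sample numbers as a term the difference was -0.14 and called (adjusted p = 0.0496), and within blocks it was -0.31, -0.07 and -0.09. Blood cell markers had a median difference of 0.33 between the drugs, with 1 of 2 tested at an unadjusted p under 0.05, and their part was not tested. The other 2 Jund probe sets lay near the floor, and the choice of probe set turned the sign of several small Jund differences.

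Against vehicle, Jund was at -0.02 ± 0.092, -0.07 ± 0.095 and -0.21 ± 0.098 at low, medium and high clozapine (SE). At high clozapine 8 of 8 arrays lay below the vehicle mean, with arrays from 13.76 to 14.41 against 14.23 to 14.85 in vehicle, and the adjusted p was 0.987 (limma). Blood cell markers lay between 10.68 and 11.68 on the high clozapine arrays and between 10.09 and 10.97 in vehicle, with a median difference of 0.87 and 2 of 2 tested at an unadjusted p under 0.05. Meningeal markers were below vehicle in 5 of 5 tested, with a median of -0.07. The part of either in the Jund value was not tested. At low, medium and high haloperidol it was at 0.11, 0.12 and -0.00 relative to vehicle, each ± 0.095, and the blocks of the haloperidol mean had opposite signs, at 0.30, -0.19 and -0.00. After lesion Jund was at 14.20 ± 0.27 against 14.33 ± 0.13 in sham, with 1 lesion array at 13.43, and after TTX at 14.33 ± 0.13 against 14.26 ± 0.11 in sham (SD).

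**Figure D4:**
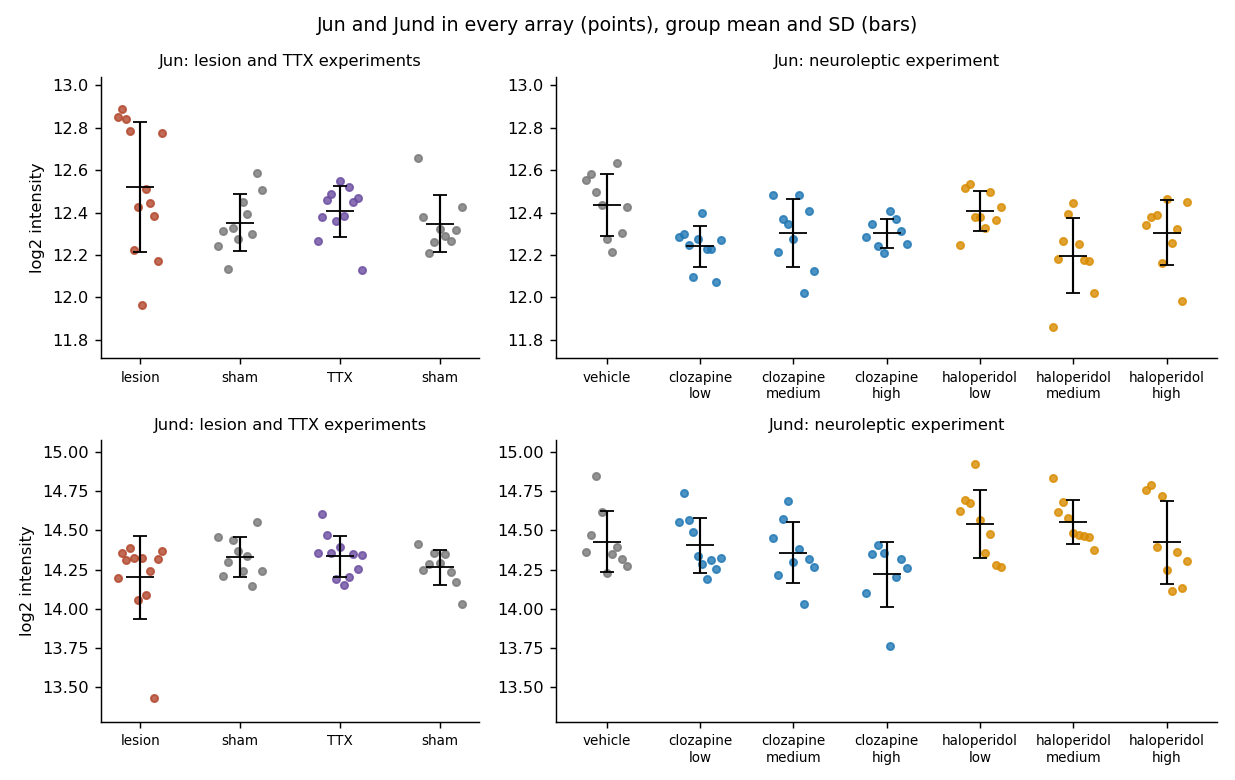
Log2 intensity of Jun and Jund (brightest probe set of each) on every array (points) with the group mean and SD (bars). Jun lies below the vehicle mean of 12.44 in all 6 drug groups, and the clozapine arrays of Jund have a median of 14.32 against 14.48 for haloperidol.

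Counted over the 6 tested probe sets, the family had its 1 call at medium clozapine. At an unadjusted p under 0.05 there were 2 higher (Fos and Junb) and 2 lower (2 of the 3 Jun probe sets) of 6 in that comparison, beside 4.06% of all probe sets. The family median was 0.04, beside 0.00 over all probe sets. For the clozapine mean 3 of 6 passed unadjusted (Fos and Junb higher, 1 Jun probe set lower) beside 3.81%, and for the haloperidol mean 2 of 6 (Fos higher, the same Jun probe set lower) beside 6.73%. In limma's adjusted test 0 of 6 passed in either, beside 0% and 0.0161% of all probe sets.

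At the other doses 0 of 6 were called, beside 0% at low clozapine, 0.00537% at high clozapine, 0% at low, 0.00537% at medium and 0.0268% at high haloperidol (limma). Unadjusted, 2, 1, 0, 2 and 2 of the 6 passed in that order, beside 2.72%, 3.87%, 4.25%, 4.69% and 7.75% of all probe sets. For clozapine against haloperidol 1 of 6, Jund, passed unadjusted beside 15.2%. Between high and low dose, 0 of 6 passed either way for both drugs, beside 0% adjusted for both and unadjusted shares of 3.24% for clozapine and 5.52% for haloperidol. In the added contrasts of medium clozapine 0 of 6 were called beside 0%, and unadjusted 3 of 6 passed against low dose beside 3.89% and 2 of 6 against high dose beside 2.29%, all higher at medium dose.

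In the surgical experiments the counts stayed at or near the background. After lesion 0 of 6 were called beside 0% of all probe sets, and 0 of 6 passed unadjusted beside 7.81% (limma). After TTX 0 of 6 were called beside 0%, and 1 of 6, Junb, passed unadjusted beside 4.63%. For the lesion effect minus the TTX effect 0 of 6 were called beside 0%, and 0 of 6 passed unadjusted beside 6.34%. Family medians were 0.00 after lesion and 0.06 after TTX, with medians of 0.00 over all probe sets in both.

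Fos and Junb varied together across arrays. Over the 63 neuroleptic arrays their correlation was 0.67 with block means removed. With group means removed instead it was 0.55, a value within groups that still holds any difference between blocks. With block means removed the correlation was 0.47 over the 22 lesion experiment arrays and 0.32 over the 20 TTX experiment arrays. Over the arrays of all 3 experiments, with block means removed, it was 0.60, against 0.31 for Fos with Fosb. These are descriptions, since both genes are read from the same RNA and the same array.

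**Figure D5:**
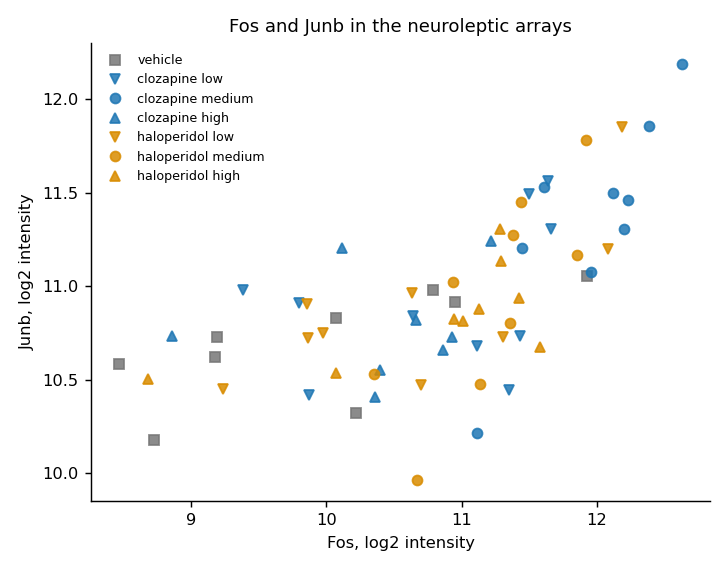
Junb against Fos, both in log2 intensity, with 1 point for each of the 63 neuroleptic arrays, coloured by drug and shaped by dose. The medium clozapine arrays lie at the upper right except replicate 1, which has Fos at 11.11 and Junb at 10.21.

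The genes most like each member were ranked by Pearson's r over the arrays of all 3 experiments with block means removed, among 13808 tested probe sets with a single symbol. For Fos they were Egr2, a zinc finger immediate early gene, at 0.82, Dusp6, a phosphatase of ERK, at 0.72 and Arc at 0.72. For Junb they were the orphan nuclear receptor gene Nr4a1 at 0.81, Arc at 0.80 and Dusp1, a phosphatase of MAP kinases, at 0.72. For Jun the highest values were 0.56 (Arnt2), 0.53 (Syn2) and 0.50 (Dmkn), and for Jund 0.52 (Ube4b), 0.48 (Sorbs3) and 0.47 (Lrrc4b). Probe sets of the same gene often agreed poorly, with r of 0.09 between both Fos probe sets, 0.10 between both of Fosl2, 0.20 to 0.47 among those of Jun and -0.14 to 0.11 among those of Jund.

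Other immediate early genes, of which 12 of 16 listed were tested, mostly lay on the same side of the control as Fos. At medium clozapine 12 of 12 were above vehicle, beside 50.9% of all probe sets, with a median difference of 0.43, beside 0.00. Arc was called, and 7 had an unadjusted p under 0.05, beside 4.06% of all probe sets (limma). Egr2 was at 1.51 ± 0.35 there (SE, limma, adjusted p = 0.107) and Nr4a1 at 0.77 ± 0.21 (adjusted p = 0.534). Both were picked as the genes most like Fos and Junb over these same arrays, with group differences left in. Their values at medium clozapine are therefore not independent of that choice. Averaged over doses 10 of 12 were above vehicle for each drug, beside 49.6% of all probe sets for clozapine and 43% for haloperidol. Both drugs share the same vehicle arrays, so the counts are not independent of each other. The medians were 0.24 for clozapine and 0.20 for haloperidol, and 0 were called. Under each drug 6 of 12 had an unadjusted p under 0.05, beside 3.81% of all probe sets for clozapine and 6.73% for haloperidol (limma). The smallest p belonged to Arc at 0.84 ± 0.22 and the zinc finger gene Egr4 at 0.34 ± 0.094 under clozapine, and to Egr1 at 0.58 ± 0.15 and Egr4 at 0.34 ± 0.094 under haloperidol. After lesion 2 were above and 10 below sham with a median of -0.15, and after TTX 10 above and 2 below with a median of 0.19. Of all probe sets 49.5% were above sham after lesion and 49.7% after TTX. In either 0 were called, with 4 after lesion and 1 after TTX at an unadjusted p under 0.05, beside 7.81% and 4.63% of all probe sets (limma). The smallest p after lesion belonged to Egr1, at -0.45 ± 0.11 (adjusted p = 0.404), and the nuclear receptor gene Nr4a3 at -0.51 ± 0.18, and after TTX to Dusp1, at 0.21 ± 0.10 (adjusted p = 0.999), and Nr4a1 at 0.26 ± 0.13.

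Kinases and factors that switch on Fos and Jun were tested for 17 of 24 listed genes. Against a control 0 were called, beside 0% to 0.0268% of all probe sets (limma). At an unadjusted p under 0.05 there were 0 to 3, beside 2.72% to 7.81% of all probe sets. After lesion the smallest p belonged to Camk4, a calcium-dependent kinase that acts on CREB, at -0.37 ± 0.12, and to Elk1, a partner of SRF at the Fos promoter, at 0.26 ± 0.10 (SE). After TTX they belonged to Dusp1 at 0.21 ± 0.10 and the ERK kinase gene Map2k1 at 0.13 ± 0.063. Dusp1 is in the list as a phosphatase of MAP kinases, not as an activator, and is also among the immediate early genes. Srf itself was at 0.10 ± 0.052 under clozapine and 0.15 ± 0.052 under haloperidol relative to vehicle, followed by Mapk9, which encodes a JNK, at 0.08 ± 0.050 under clozapine and by Rps6ka5 at 0.19 ± 0.12 under haloperidol. Rps6ka5, which encodes MSK1, a kinase of CREB and histones, was the 1 call of the list, at a clozapine minus haloperidol difference of -0.32 ± 0.082 (SE, limma, adjusted p = 0.0374). In that comparison 1.2% of all probe sets were called (224 of 18625). At an unadjusted p under 0.05 the list had 1 higher and 2 lower of 17, beside 15.2% of all probe sets (limma).

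Partner proteins with the same zipper were tested for 6 of 12 listed genes. In any comparison 0 were called, beside 0% to 1.2% of all probe sets (limma). At an unadjusted p under 0.05 there was at most 1, beside 2.29% to 15.2% of all probe sets. The small Maf genes Mafk and Mafg were at 0.20 ± 0.10 and -0.09 ± 0.056 after lesion (SE). After TTX Mafg was at 0.11 ± 0.096 and Jdp2, which encodes a repressor that pairs with Jun, at 0.07 ± 0.088. Under clozapine Maf was at -0.14 ± 0.12 and Mafk at 0.10 ± 0.10, and under haloperidol Mafg was at 0.09 ± 0.070 and Atf2, a partner of Jun, at -0.06 ± 0.062. The list's medians lay between -0.01 and 0.05 in these 4 comparisons.

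Genes described as targets of AP-1 or FosB were tested for 7 of 14 listed. In any comparison 0 were called, beside 0% to 1.2% of all probe sets (limma). At an unadjusted p under 0.05 there were 0 to 3, beside 2.29% to 15.2% of all probe sets. Penk, the enkephalin precursor gene, had the smallest p after lesion, at 0.39 ± 0.11 (SE, limma, adjusted p = 0.506), followed by the protease inhibitor gene Timp1 at 0.60 ± 0.34. Penk is also a striatal marker. Striatal markers, with Penk counted among them, were above sham in 4 of 6 tested genes after lesion, with a median difference of 0.16. At an unadjusted p under 0.05 there were 2 higher and 1 lower, beside 7.81% of all probe sets (limma). The part of striatal tissue in the Penk value was not tested. After TTX the metallothionein gene Mt2A was at 0.22 ± 0.11 and Cdk5, a neuronal kinase gene, at 0.11 ± 0.062. Under clozapine the AMPA receptor gene Gria2 was at 0.06 ± 0.054 and the dynorphin precursor gene Pdyn at -0.11 ± 0.13, and under haloperidol the cyclin gene Ccnd1 was at 0.24 ± 0.15 and Cdk5 at -0.07 ± 0.048. List medians at medium clozapine, where Fos was called, were 0.05 for these genes, 0.02 for the kinases and 0.03 for the partners. The median over all probe sets was 0.00.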

How the data were processed

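Frontal cortex RNA from 3 rat experiments was measured on 105 arrays. The deposited table, made by the authors, holds 1 linear intensity per probe set and array for 31099 probe sets. The sources used here do not give the software or how background and summary were handled. The trimmed mean (2% at each end) was between 2500.6 and 2500.8 on every array, so the arrays had been scaled. There are no detection calls, and the number of arrays limits the precision. Groups came from the sample descriptions. Replicate numbers follow accession order and pair nothing. In all, 0 pairs of arrays held identical values.

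Deposited intensities were quantile-normalised within each experiment, floored at 32 and brought to log2; 57 control probe sets were dropped, and the 60% with the highest mean were tested. Limma 3.58.1 (lmFit, eBayes) in R 4.3.3 was fitted with 1 mean per group, and p-values were adjusted by Benjamini-Hochberg over the 18625 probe sets tested. Each surgical experiment had its own fit, the neuroleptic groups were fitted together with a common spread, and the lesion effect minus the TTX effect came from a joint fit. There were 14 comparisons and 2 added after the values were seen. The scripts were tested on simulated data. Figures were drawn with matplotlib 3.10.9.

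Symbols came from the platform's annotation, checked through Entrez against GRCr8, and 0 changed. Named genes are all family probe sets; for each tested member the 3 genes most like it by its brightest tested probe set; and, from the 4 lists of immediate early genes, kinases, partners and targets, every called gene or else the 2 with the smallest p. Egr2 and Nr4a1 at medium clozapine were named as the genes most like Fos and Junb. The members and lists were chosen with earlier results of these data known. The lists share Dusp1 and Maff, and Penk is also a striatal marker. Alternatives tried were the deposited values without quantile normalisation, quantiles over all arrays, a floor of 128, no filter, a 40% filter, the block or the sample number as a term, array weights, a trended robust prior, the mean of a gene's probe sets, and leaving out each array in turn.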

Additional observations from a re-analysis of the deposited data

Results flagged for a closer look

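Arrays that stood apart from the rest of their group, by a gap large for the group's range, were found 18 times over 117 checks. These were in 9 of the 13 probe sets of the family, and the groups checked had 4 to 10 arrays. The nominal rate of the check is about 1 in 20 and was not computed from these arrays. Several of the finds were in probe sets with values at the floor, where that rate need not hold. The lesion and TTX groups, with 12 and 11 arrays, were not checked. For Fos the lowest high clozapine array, replicate 6, was at 8.86. Fosb had its lowest lesion sham array at 7.88 (replicate 8) and its highest high clozapine array at 9.11 (replicate 3). Fosl1 had replicate 1 of low clozapine at 5.06 and replicate 6 of low haloperidol at the floor of 5.00.

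The dimmer Fosl2 probe set had single high arrays at 8.91 in lesion sham (replicate 6), 8.13 at low clozapine (replicate 1), 7.13 at medium haloperidol (replicate 4) and 7.94 in vehicle (replicate 3). The brighter one had single low arrays at 7.40 at medium clozapine (replicate 1) and 6.24 at low clozapine (replicate 5).

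The brightest Jun probe set had a high TTX sham array at 12.66 (replicate 1). The second had low arrays at 10.03 in lesion sham (replicate 7), 10.28 at low clozapine (replicate 1), 10.34 at high clozapine (replicate 2) and 10.09 at medium haloperidol (replicate 2), and the third had a low high-haloperidol array at 11.49 (replicate 8). A dim Jund probe set had a TTX sham array at the floor of 5.00 (replicate 2).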

How the results depend on the processing

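Across 10 alternatives that kept every array, 841 values were computed and 13 turned in sign; leaving out each array gave 4515 values, of which 25 turned. No paired analysis was possible because the labels carry no replicate numbers that groups share. Fos at medium clozapine against vehicle stayed called in 9 of 10 alternatives, with differences from 1.95 to 2.04, and fell to 0.78 with the mean of both probe sets, where 0 family probe sets were called. Leaving out 1 array gave 1.83 to 2.27, adjusted p 0.00138 to 0.0598 (limma), and 0 to 1 family calls, with the call kept in 61 of 63. For clozapine against haloperidol 1 family probe set, Jund, was called with the block term (-0.14), the sample number (-0.20) or array weights (-0.19), and 0 to 1 when an array was left out, the call coming without high clozapine replicate 2. With the probe set mean the sign turned for Jund after TTX (-0.070), for Jund at the clozapine mean (0.046), low clozapine (0.052) and medium clozapine (0.10) against vehicle and at medium against low clozapine (0.049), and for clozapine against haloperidol in Fos (-0.15) and Jun (0.016). Junb after lesion became 0.024 with array weights and ran from -0.087 to 0.012 without single arrays. Jund at low clozapine became 0.0023 with the sample number and 0.0016 with array weights, ranging from -0.060 to 0.029 without single arrays, and Jund at high haloperidol became 0.059 and 0.023, ranging from -0.050 to 0.049. Junb at high minus low haloperidol became 0.065 with the block term, ranging from -0.11 to 0.072; Fos in that contrast ranged from -0.0016 to 0.44, and Jun at medium minus high clozapine from -0.022 to 0.036. The causes were not tested. Without detection calls, values at the floor limit what can be said of Fosl1 and of the dimmer probe sets of Fos, Fosl2 and Jund.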
